A study of Homo sapiens with 12 samples.

Results

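Antisense and divergent long noncoding RNAs are transcripts named after a neighbouring gene: an antisense RNA (symbol ending in -AS1 or -AS2) is read from the opposite strand of that gene, and a divergent transcript (symbol ending in -DT) starts beside it and runs the other way. The RNAs described here are genes of these names whose probe set matched 1 gene and had a mean log2 value above 6 over 12 arrays, each gene represented by its probe set with the highest mean. Of 957 genes with such a symbol, 307 met the limit: 216 ended in -AS1, 11 in -AS2 and 80 in -DT. All 307 also passed the filter on dim probe sets and were tested among 14649 genes. The RNAs were chosen by this 12-array level, which is given only as a description: the median of their means was 6.94, and 165 of them lay between 6 and 7. Just above the limit were KLF3-AS1, LRRC52-AS1 and ALDH1L1-AS2 with means of 6.00, 6.00 and 6.01, and just below it ELFN1-AS1, BFSP2-AS1 and RPL26L1-AS1 with 6.00, 6.00 and 5.99.

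Many human promoters fire in both directions, and a head-to-head pair of a coding and a noncoding start shares the open chromatin between them. Some antisense RNAs act on the neighbouring gene by pairing with its transcript, by bringing chromatin factors to it or by being transcribed through it, while others act elsewhere or have no known role. An antisense RNA and its neighbour can therefore move together, in opposite directions or independently. The comparison with the coding neighbour below sets their changes side by side and does not decide between these.

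The RNA came from A549, a human lung adenocarcinoma cell line. Cells took up a DNA-binding Hoechst dye (5 µg/ml, 90 min), and flow cytometry then separated the side population (SP), dim because the transporter ABCG2 exports the dye, from all remaining cells (non-SP). The 4 groups were non-SP and SP cells of untreated cultures and non-SP and SP cells of cultures kept for 48 h with 100 µg/ml of a monoclonal antibody to EpCAM, with 3 biological replicates each. The antibody is labelled anti-mouse EpCAM with no word on whether mouse is its host or its target, and no group received a control antibody. Each sample was hybridised to 1 Affymetrix array, and the values are RMA log2 values. The SP and the non-SP array that shared a treatment and a replicate number were taken as a pair, which gave 6 pairs, and differences are SP minus non-SP within a pair. The labels do not state that the arrays of a pair came from 1 sort. Precision is limited throughout by how few arrays there are.

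The labelled cell type was checked on its markers. The keratins KRT18, KRT8 and KRT7 had mean levels of 14.5, 13.4 and 12.9, and all 10 epithelial markers passed the filter. The defining leukocyte and endothelial markers PTPRC, LYZ, CDH5 and KDR lay between 3.55 and 4.31, below the filter of 5.39, while CD14, CD3E and PECAM1 of the same lists passed it at 6.83, 6.71 and 6.71 and were not called between fractions. The lung markers SFTPB, NAPSA and NKX2-1 lay at 7.54, 6.39 and 6.08. ABCG2, the pump that defines the SP, was higher in SP in 6 of 6 pairs, by 0.49 ± 0.056 (SE, adjusted p = 0.00375, limma). EPCAM, the target named for the antibody, rose by 0.26 (adjusted p = 0.0435), also in 6 of 6 pairs. Of 6 fibroblast markers, 4 passed the filter, COL1A1 at 9.28, DCN at 6.14, COL1A2 at 5.79 and PDGFRB at 5.74, and LUM and COL3A1 did not. COL1A1 fell by 0.57 in SP (adjusted p = 0.00966), and the other 3 were not called. The part of other cell types in the results below was not tested. The difference between 3′ and 5′ control probe sets of ACTB, a measure of RNA integrity, shifted between SP and non-SP by 1.86 in anti-EpCAM pair 1 and by -2.09 in pair 3, against -0.36 to 0.27 in the other 4 pairs.

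The promoters shown here are those of CARD8-AS1, PDCD4-AS1 and HHIP-AS1, which were called between fractions, and of HNRNPD-DT and PELP1-DT, which were not. Other called RNAs with a start in RefSeq, such as RUSC1-AS1 and ICA1-AS1, are not printed. Windows run from 250 bases before to 50 after the start of the RNA. For HHIP-AS1 and PELP1-DT only the bases between the starts of the RNA and its coding neighbour are printed. All are RefSeq sequences of build GRCh38.p14, given 5′ to 3′ on the strand of the noncoding RNA, with matches to 5 motifs in capitals: CCAAT, the GC box GGGCGG, the ETS motif CCGGAAG, the NRF1 motif and TATAAA, each searched on both strands. CARD8-AS1 lies on the plus strand at chr19:48255425-48255724, and its capitals are CCAAT read as ATTGG and, directly after it with no shared base, TATAAA. PDCD4-AS1 lies on the minus strand at chr10:110870855-110871154 and held none of the 5 motifs. HHIP-AS1 is shown between its start and that of HHIP, on the minus strand at chr4:144646020-144646155, with the GC box once in each orientation (GGGCGG, and CCGCCC for the other strand). HNRNPD-DT lies on the plus strand at chr4:82374318-82374617 with 1 GC box, and PELP1-DT is shown between its start and that of PELP1 on the plus strand at chr17:4704138-4704229, with none of the motifs.
CARD8-AS1: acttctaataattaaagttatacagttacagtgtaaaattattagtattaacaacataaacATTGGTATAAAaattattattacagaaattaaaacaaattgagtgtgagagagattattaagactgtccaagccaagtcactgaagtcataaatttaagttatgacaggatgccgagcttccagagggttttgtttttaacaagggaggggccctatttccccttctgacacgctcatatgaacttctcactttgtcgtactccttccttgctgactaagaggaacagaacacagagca
PDCD4-AS1: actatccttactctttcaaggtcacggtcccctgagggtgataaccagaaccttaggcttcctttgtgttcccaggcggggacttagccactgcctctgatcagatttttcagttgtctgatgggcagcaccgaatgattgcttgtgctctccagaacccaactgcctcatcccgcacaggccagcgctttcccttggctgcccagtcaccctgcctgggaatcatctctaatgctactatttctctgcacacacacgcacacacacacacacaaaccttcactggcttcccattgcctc
HHIP-AS1: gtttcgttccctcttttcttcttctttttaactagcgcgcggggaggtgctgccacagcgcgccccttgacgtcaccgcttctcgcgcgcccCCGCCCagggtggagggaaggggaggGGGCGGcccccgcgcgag
HNRNPD-DT: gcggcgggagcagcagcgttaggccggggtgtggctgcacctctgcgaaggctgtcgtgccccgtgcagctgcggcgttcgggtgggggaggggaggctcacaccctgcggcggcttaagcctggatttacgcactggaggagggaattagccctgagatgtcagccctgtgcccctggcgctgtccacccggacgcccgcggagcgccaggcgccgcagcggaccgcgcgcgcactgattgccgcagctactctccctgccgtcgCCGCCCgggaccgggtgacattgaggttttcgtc
PELP1-DT: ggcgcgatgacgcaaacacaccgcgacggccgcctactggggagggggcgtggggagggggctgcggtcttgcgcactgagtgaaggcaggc

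These windows differ in composition. The CARD8-AS1 window was 35% G or C with 3 CpG dinucleotides, and the HNRNPD-DT window 70.3% with 33. The median over 234 of the RNAs with a RefSeq window was 66.7% and 26.5 CpG, against 58.3% and 14 over 27305 windows of all genes. The GC box was in 64.1% of the 234 windows and in 44.6% of all windows, the ETS motif in 17.9% and 10.7%, CCAAT in 30.8% and 35.7%, NRF1 in 2.14% and 1.36%, and TATAAA in 6.41% and 11.9%. The 244 windows of coding neighbours were much like those of the RNAs, with medians of 67.5% and 27 CpG. They held the GC box in 71.7%, the ETS motif in 18.0%, CCAAT in 33.2%, NRF1 in 2.05% and TATAAA in 9.02%. A match describes the letters of the window and not a bound factor.

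For 206 of the RNAs, windows of both the RNA and its coding neighbour were listed, and 205 of these lay on opposite strands. Starts were head to head within 1000 bases for 50 of 54 divergent transcripts and for 49 of 152 antisense RNAs. HHIP-AS1, RUSC1-AS1 and ICA1-AS1 were of this kind, with 137, 92 and 58 bases between starts, and PDCD4-AS1 started head to head at 1024 bases. CARD8-AS1 started 237 bases inside CARD8 and ran out across the CARD8 start. CCDC18-AS1, SLC9A3-AS1 and SLC25A25-AS1 started 165087, 51213 and 20227 bases from the start of their neighbour.

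Over the 6 pairs, 14 of the 307 RNAs passed at an adjusted p under 0.05 (4.56%), 12 lower and 2 higher in SP. Over all genes tested the call was made for 2.47%, with 1.45% lower and 1.02% higher in SP. Among the 12812 genes with a mean above 6, the limit set for the RNAs, it was made for 2.7%, with 1.56% lower and 1.14% higher. The noncoding RNAs were thus called lower in 3.91% and higher in 0.651%, and this difference from the background was not tested. Most of the RNAs had estimates near 0: 228 of 307 had an estimate within 0.1 of 0 on the log2 scale (74.3%, against 69.8% of all genes), their median was 0.0031 and that of all genes 0.0056. In bulk samples, fewer cells of a kind and less RNA per cell cannot be told apart.

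The calls rest on the pairs. When the 12 arrays were fitted as independent samples, without the pair as a block, 0 of the 307 passed in limma and 0% of all genes did. At an unadjusted p under 0.05 that fit held 4 of the RNAs, CARD8-AS1, RNF139-DT, RUSC1-AS1 and PDCD4-AS1 (1.5% of all genes). Without any 1 of the 6 pairs, 3 RNAs still passed every time: CARD8-AS1, RNF139-DT and PDCD4-AS1. Over all genes such fits made 72 to 430 calls, against 362 with all 6 pairs. Without anti-EpCAM pairs 1 and 3, those with the large ACTB shift, CARD8-AS1 and RNF139-DT passed (adjusted p = 0.0143 for both) and the other 12 did not.

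**Figure D1:**
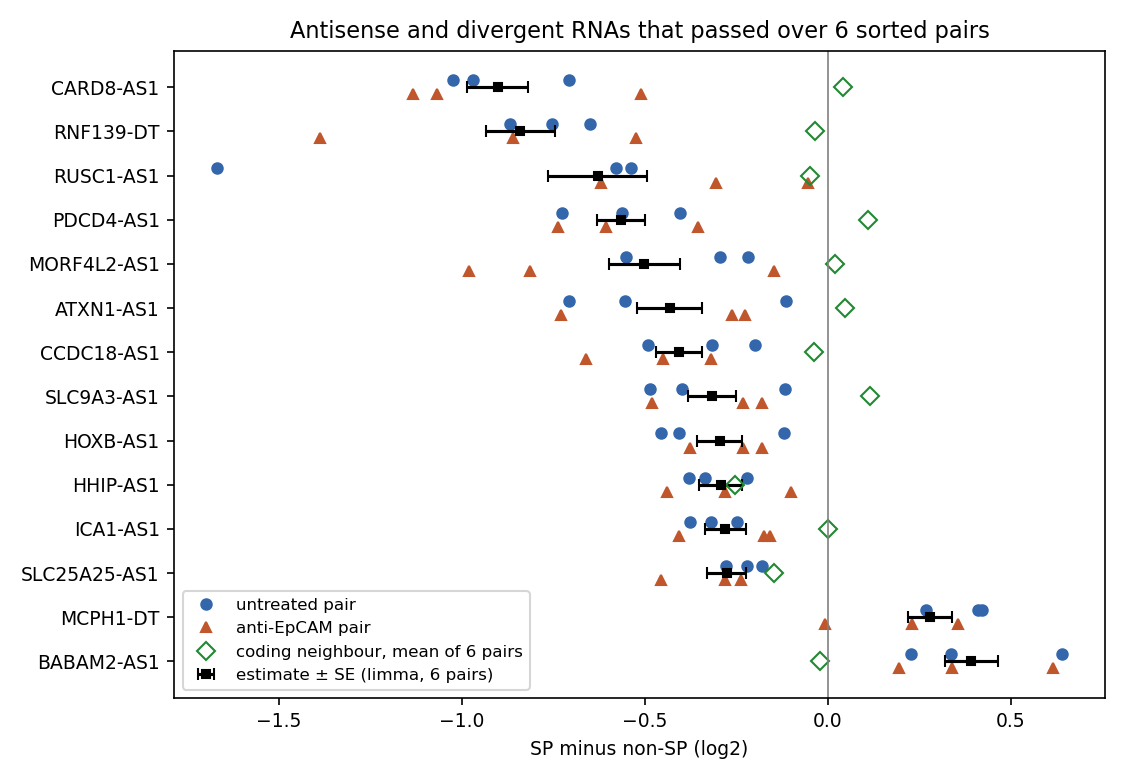
SP minus non-SP difference (log2) of the 14 antisense and divergent RNAs that passed over 6 pairs: circles are untreated pairs, triangles anti-EpCAM pairs, squares the limma estimate with its SE, and open diamonds the mean of the coding neighbour where it was measured. CARD8-AS1 and RNF139-DT lie below -0.5 in all 6 pairs, while their neighbours lie at 0.042 and -0.034.

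CARD8-AS1 had the largest difference of the 307. CARD8, the gene it is named after, encodes an inflammasome-forming sensor. Its values in untreated non-SP cells were 7.68, 7.47 and 7.59 and in untreated SP cells 6.97, 6.44 and 6.62. With the antibody non-SP cells had 7.49, 7.45 and 7.72, and SP cells 6.98, 6.38 and 6.59. Each of the 6 non-SP arrays was above each of the 6 SP arrays. CARD8-AS1 fell by 0.90 ± 0.084 in SP (SE, n = 6 pairs, adjusted p = 0.00137, limma), which is 1.87-fold higher in non-SP cells. Its pair differences were -0.71, -1.02 and -0.97 untreated and -0.51, -1.07 and -1.13 treated. The dimmer of its 2 probe sets, with a mean of 4.36, was lower in 6 of 6 pairs too, by a mean of -0.45.

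CARD8 itself had a mean level of 9.39 and pair differences of 0.19, -0.03 and -0.04 untreated and -0.09, 0.29 and -0.07 treated. Its estimate was 0.042 ± 0.066 (adjusted p = 0.803). CARD8-AS1 minus CARD8 was -0.94, below 0 in 6 of 6 pairs (exact two-sided sign-flip test, p = 0.03125, the smallest that 6 pairs allow). Any difference with 1 sign in all 6 pairs gives this p-value, and CARD8-AS1 was named for its fall in the same pairs. The p-value is therefore a description, as it is for RNF139-DT and BABAM2-AS1 below.

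RNF139-DT starts beside RNF139, which encodes a ubiquitin ligase of the endoplasmic reticulum. Its values were 7.62, 7.47 and 8.47 in untreated non-SP and 6.97, 6.60 and 7.72 in untreated SP cells. Treated non-SP cells had 7.97, 8.12 and 8.50, and treated SP cells 6.59, 7.26 and 7.97. The groups overlapped across replicates, since replicate 3 was high in both fractions, but SP was the lower array of each pair. RNF139-DT fell by 0.84 ± 0.094 (SE, adjusted p = 0.00321). RNF139 had pair differences of -0.01, -0.08 and -0.03 untreated and 0.06, 0.07 and -0.21 treated, with an estimate of -0.034 ± 0.056 (adjusted p = 0.819). The difference between RNA and neighbour was -0.81 and below 0 in 6 of 6 pairs (exact sign-flip p = 0.03125).

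PDCD4-AS1 is the antisense partner of PDCD4, an inhibitor of translation initiation with tumour suppressor activity. Its values were 6.48, 6.21 and 7.18 in untreated non-SP and 5.92, 5.81 and 6.45 in untreated SP cells. Treated non-SP cells had 6.39, 6.47 and 7.20, and treated SP cells 5.78, 6.11 and 6.46. Replicate 3 was again the highest in each group, and SP was lower within each pair. PDCD4-AS1 fell by 0.56 ± 0.066 (SE, adjusted p = 0.00378). The PDCD4 probe set named by 1 gene had a mean of 4.44, below the filter, so that PDCD4 was not tested here and its mean difference of 0.11 is from a dim probe set. Without anti-EpCAM pairs 1 and 3 PDCD4-AS1 had an adjusted p of 0.074.

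**Figure D2:**
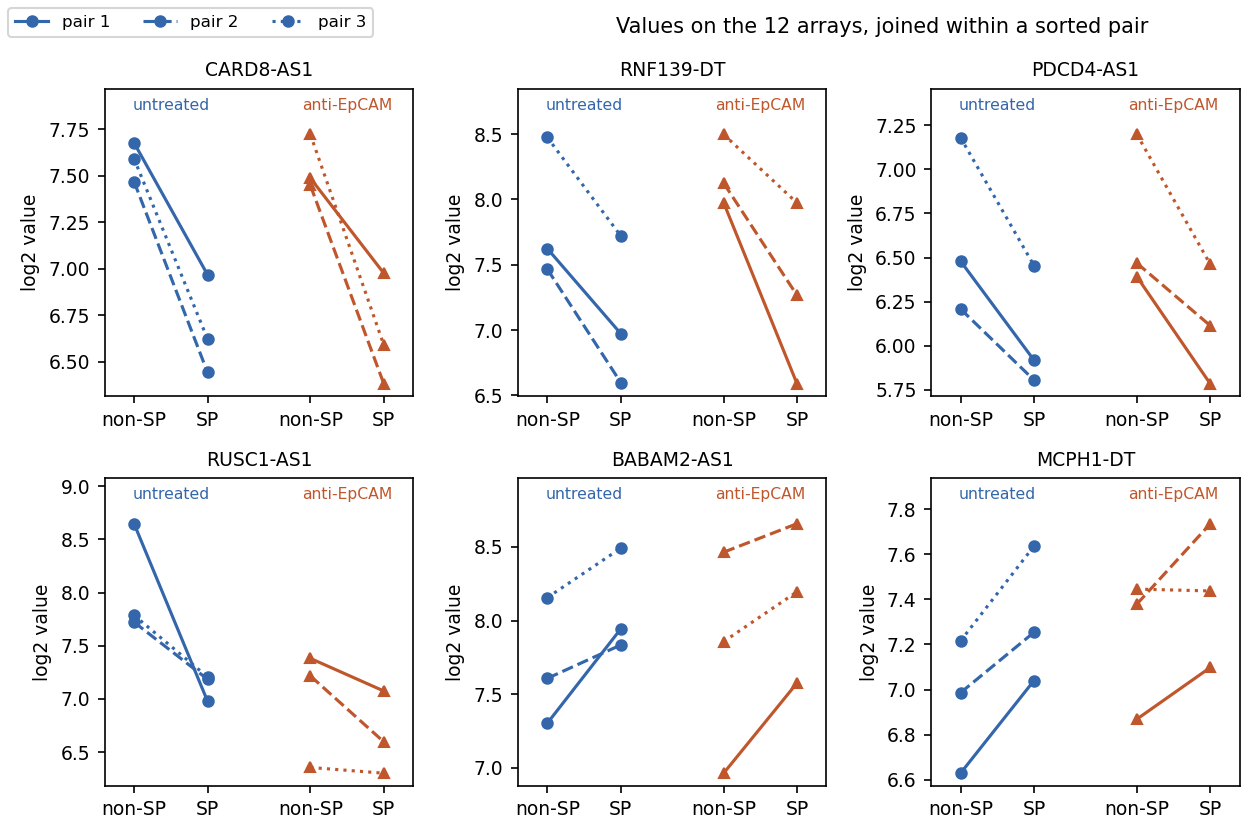
RMA log2 values of 6 RNAs on the 12 arrays, with the non-SP and SP array of a pair joined, untreated in circles and anti-EpCAM in triangles, and the line style giving the replicate number. CARD8-AS1 falls from 7.45 or more to 6.98 or less in all pairs, RUSC1-AS1 falls most in untreated pair 1, and MCPH1-DT is flat in anti-EpCAM pair 3.

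RUSC1-AS1, which shares its promoter region with the adaptor gene RUSC1, fell by 0.63 ± 0.14 (SE, adjusted p = 0.0412), but its pairs were the most spread of all 307 RNAs (SD 0.55). The differences were -1.67, -0.54 and -0.58 untreated and -0.31, -0.62 and -0.05 treated. Untreated pair 1 was the largest, from 8.65 in non-SP to 6.98 in SP, and anti-EpCAM pair 3 was near 0. Without 1 pair the estimate lay between -0.73 and -0.44, and it passed in 2 of 6 such fits. Its second probe set, with a mean of 5.85, gave -0.097. RUSC1 had an estimate of -0.049 (adjusted p = 0.755).

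MORF4L2-AS1, antisense to a histone acetyltransferase complex gene, fell by 0.50 ± 0.098 (adjusted p = 0.0277), with differences of -0.55, -0.29 and -0.22 untreated and -0.82, -0.15 and -0.98 treated. The most negative 2 were anti-EpCAM pairs 1 and 3. Its dimmer probe set, with a mean of 5.23, went the other way, by 0.068, so the direction of this RNA depends on the probe set. ATXN1-AS1, antisense to the polyglutamine disease gene ATXN1, fell by 0.43 ± 0.089 (adjusted p = 0.0346), and its second probe set, at a mean of 4.50, gave 0.031. CCDC18-AS1 fell by 0.41 ± 0.063 (adjusted p = 0.0128), with all pair differences between -0.66 and -0.20, and passed in 5 of the 6 fits that left out 1 pair. Its second probe set, with a mean of 5.58, gave -0.063 and was higher in SP in 2 pairs. With the mean of all probe sets of a gene, none of these 3 RNAs passed, nor did RUSC1-AS1: MORF4L2-AS1 was at -0.22, ATXN1-AS1 at -0.20, CCDC18-AS1 at -0.23 and RUSC1-AS1 at -0.36 (adjusted p = 0.0617 to 0.243).

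The remaining 5 falls were smaller. SLC9A3-AS1, named after a sodium and hydrogen exchanger, fell by 0.32 ± 0.066 (adjusted p = 0.036). HOXB-AS1, from the HOXB cluster of developmental transcription factors, fell by 0.30 ± 0.061 (adjusted p = 0.0346) and has no single coding gene in its symbol. ICA1-AS1 fell by 0.28 ± 0.055 (adjusted p = 0.0289) and SLC25A25-AS1, named after a mitochondrial carrier of ATP and phosphate, by 0.28 ± 0.053 (adjusted p = 0.0268). All 4 were lower in SP in 6 of 6 pairs, and each passed in 1 of the 6 fits without a pair.

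HHIP-AS1 was the passing RNA whose neighbour had the most similar estimate. HHIP binds hedgehog ligands and dampens their signal. HHIP-AS1 differed by -0.22, -0.33 and -0.38 in the untreated and by -0.10, -0.44 and -0.28 in the treated pairs, and fell by 0.29 ± 0.059 (SE, adjusted p = 0.0307). HHIP differed by -0.07, -0.19 and -0.62 untreated and by -0.22, -0.21 and -0.22 treated, an estimate of -0.25 ± 0.071 that did not pass (adjusted p = 0.10). Both members of this head-to-head pair were lower in SP in 6 of 6 pairs. The RNA minus its neighbour was -0.038 (exact sign-flip p = 0.625).

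Only BABAM2-AS1 and MCPH1-DT rose over the 6 pairs. BABAM2 is a subunit of a deubiquitinase complex of the DNA damage response, and MCPH1 encodes microcephalin, which acts in chromosome condensation and DNA repair. BABAM2-AS1 had untreated non-SP values of 7.30, 7.61 and 8.16 against SP values of 7.94, 7.83 and 8.49, and treated values of 6.96, 8.46 and 7.86 against 7.58, 8.66 and 8.20. The groups overlapped, but SP was higher in each pair, and BABAM2-AS1 rose by 0.39 ± 0.073 (SE, adjusted p = 0.0235). BABAM2 lay between -0.12 and 0.05 in the 6 pairs, with an estimate of -0.020 (adjusted p = 0.886), and the RNA exceeded it in 6 of 6 (difference 0.41, exact sign-flip p = 0.03125). MCPH1-DT rose by 0.28 ± 0.060 (adjusted p = 0.042) in 5 of 6 pairs, with differences of 0.41, 0.27, 0.42, 0.23, 0.36 and -0.01, and no probe set named by MCPH1 alone was used here. Its second probe set was higher in SP in 6 of 6 pairs, by 0.15. BABAM2-AS1 passed in 2 of the 6 fits without a pair and MCPH1-DT in 1.

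The next estimates above 0 did not pass. PELP1-DT, head to head at 93 bases with PELP1, a coregulator of nuclear receptors, had differences of 0.48, 0.21 and 0.17 untreated and 0.22, 0.40 and 0.14 treated, above 0 in 6 of 6 pairs (0.27 ± 0.062, adjusted p = 0.0513). Under quantile normalization over the 12 arrays it passed at an adjusted p of 0.0413. TMEM132D-AS1 had an estimate of 0.38 ± 0.10 (adjusted p = 0.0904) and was lower in untreated pair 2, without which the estimate was 0.51 and passed (adjusted p = 0.00996). ADCY6-DT, CKMT2-AS1, SCAMP1-AS1 and ZEB1-AS1, the last antisense to the transcription factor of epithelial-mesenchymal transition, had estimates of 0.23, 0.23, 0.20 and 0.19 (adjusted p = 0.119 to 0.274). HNRNPD-DT, beside the gene of an RNA-binding protein that controls mRNA decay, was lower in 6 of 6 pairs and did not pass (-0.20 ± 0.051, adjusted p = 0.0742).

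By direction alone, 19 of the 307 RNAs were lower and 7 higher in SP in all 6 pairs (6.19% and 2.28%), against 4.68% and 6.03% of all genes. At an unadjusted p under 0.05 there were 41 RNAs (13.4%), against 16.2% of all genes. The share of RNAs past this looser limit was therefore below the background, and the share past the adjusted limit above it. Divergent transcripts gave 1 fall and 1 rise of 80, and antisense RNAs 11 falls and 1 rise of 227.

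**Figure D3:**
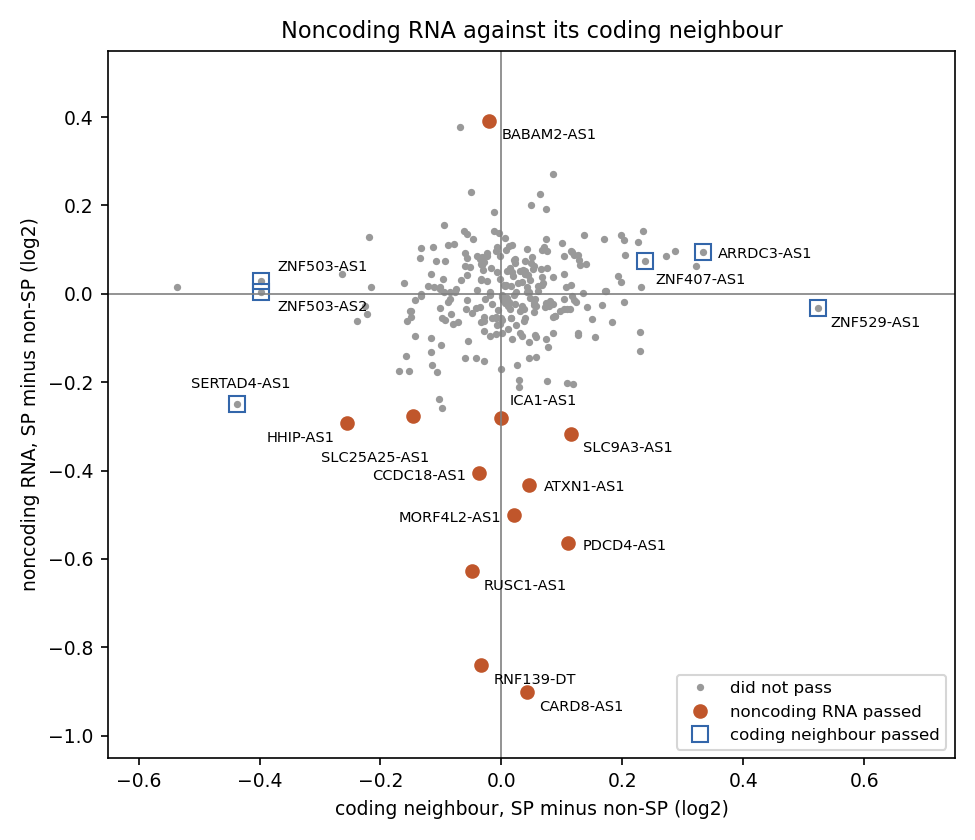
SP minus non-SP estimate (log2) of each noncoding RNA (vertical) against that of its coding neighbour (horizontal), for 281 RNAs with a measured neighbour. The RNAs that passed, in filled circles, lie at neighbour values between -0.25 and 0.11, all but BABAM2-AS1 (0.39) below 0, and the squares, whose neighbours passed, lie where the RNA is between -0.25 and 0.094.

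A coding neighbour was measured for 281 of the RNAs and tested for 258. The RNA and its neighbour had the same sign in 132 of the 258, and their estimates correlated weakly (r = 0.12, rho = 0.14 over 258 pairs of genes, a description, since all share the same arrays). For 95 head-to-head pairs within 1000 bases the signs matched in 50 and r was 0.20, and for 98 pairs in another arrangement in 48 with r of 0.046. In 0 of the 258 did both the RNA and its neighbour pass. Of the 14 passing RNAs, 12 had a measured neighbour, 10 of these were tested, and their adjusted p-values lay between 0.10 and 0.999. Beside the neighbours that passed, no noncoding RNA was called. Of all genes 2.47% were called, so few joint calls, if any, could arise among the 10 tested neighbours. The absence of a joint call therefore does not show that RNA and neighbour move independently.

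ZNF529, a zinc finger gene, rose by 0.52 ± 0.083 in SP (adjusted p = 0.0149) in 6 of 6 pairs, while ZNF529-AS1 had an estimate of -0.032. ARRDC3, an arrestin-like adaptor gene, rose by 0.33 (adjusted p = 0.0307), with 0.094 for ARRDC3-AS1, and ZNF407 by 0.24 (adjusted p = 0.0433), with 0.074 for ZNF407-AS1. These 3 antisense RNAs had adjusted p-values of 0.815, 0.432 and 0.651.

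Among the neighbours that fell, ZNF503 fell by 0.40 (adjusted p = 0.0177), while its partners ZNF503-AS1 and ZNF503-AS2 had estimates of 0.029 and 0.0032. SERTAD4 fell by 0.44 (adjusted p = 0.00463), and SERTAD4-AS1 had an estimate of -0.25 that did not pass (adjusted p = 0.103). ID2, an inhibitor of basic helix-loop-helix factors, had an estimate of -0.54 that did not pass (adjusted p = 0.0667), and ID2-AS1 one of 0.016.

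The RNA lay on the same side of its neighbour in all 6 pairs for 30 of 281 RNAs, below it for 22 and above it for 8. For comparison, 10.7% of all genes had 1 sign of their own SP minus non-SP difference in all 6 pairs. The share for other pairs of genes was not worked out, so the 30 are a description. For each of these 30 the exact sign-flip test gave 0.03125, which follows from the shared sign alone, with no adjustment for the number of RNAs. Where neither gene passed, HNRNPD-DT (-0.20) lay below HNRNPD (0.11) by -0.31 and PELP1-DT above PELP1 by 0.19. ZNF503-AS1 lay above ZNF503 by 0.43, and ZNF529-AS1 below ZNF529 by -0.56, where the coding gene was the one that passed. The ZNF529-AS1 difference was -0.19 with the mean of all probe sets of both genes, and that of MORF4L2-AS1 turned from -0.52 to 0.30.

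Split by treatment, CARD8-AS1 passed in the untreated pairs (-0.90 ± 0.12, adjusted p = 0.0276), 1 of 307 RNAs against 0.0956% of all genes. In the treated pairs 3 RNAs passed, against 0.246% of all genes: CARD8-AS1 (-0.90, adjusted p = 0.0313), RNF139-DT (-0.92, adjusted p = 0.0377) and PDCD4-AS1 (-0.57, adjusted p = 0.0473). In the fit without the pair block, 0 passed in either. CARD8-AS1 in untreated cells did not pass without any 1 untreated pair or without anti-EpCAM pair 2, and leaving out 1 pair left 0 to 2 RNAs in the treated cells, 0 of them without anti-EpCAM pair 2.

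**Figure D4:**
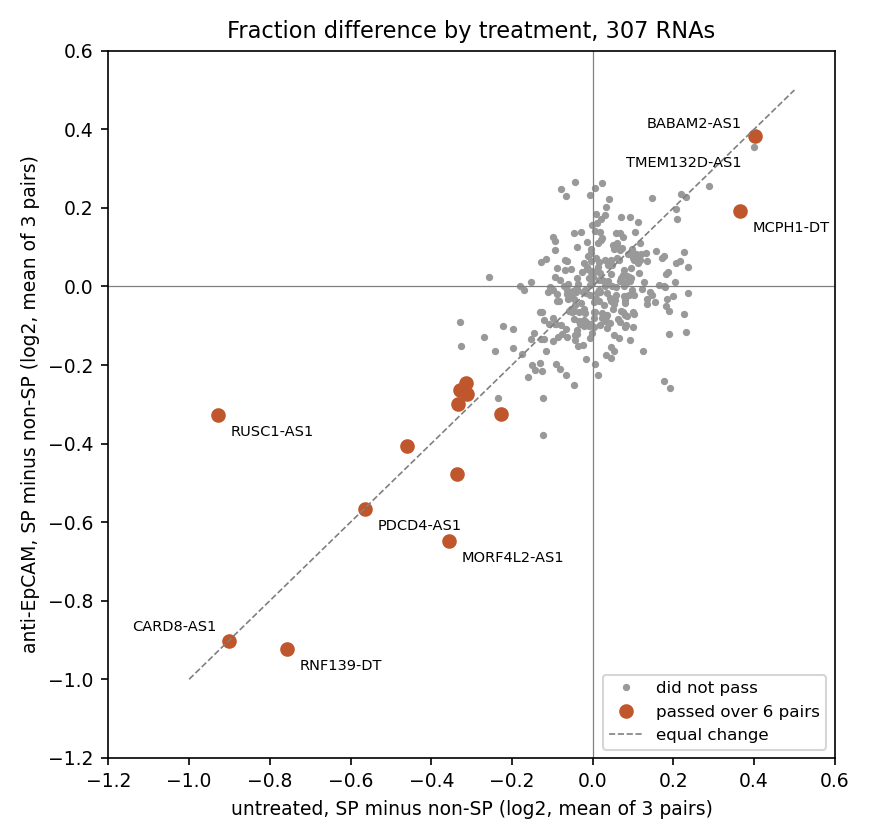
Mean SP minus non-SP difference (log2, 3 pairs each) in anti-EpCAM cells against untreated cells for the 307 RNAs, with the 14 that passed over 6 pairs in filled circles and the line of equal change dashed. CARD8-AS1 and PDCD4-AS1 lie on the line, and RUSC1-AS1, at -0.93 and -0.33, lies farthest from it among the 14.

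The treatments gave the same sign for 193 of the 307 RNAs (62.9%, against 67.8% of all genes), and for all 14 that passed over the 6 pairs, a direction that the choice by the 6-pair estimate favours. The difference between treated and untreated pairs was itself tested, and 0 of the RNAs passed, as 0% of all genes did in limma (smallest adjusted p = 1.00). At an unadjusted p under 0.05 there were 9 RNAs, against 1.7% of all genes. ZNF529-AS1 had differences of 0.14, 0.17 and 0.22 untreated and -0.23, -0.36 and -0.13 treated, and NARS2-AS1 of 0.07, 0.08 and 0.43 against -0.11, -0.34 and -0.34. In both the untreated and treated pairs did not overlap, and the adjusted p was 1.00. TMEM72-AS1 differed by -0.35 between treatments, and RUSC1-AS1, TPT1-AS1 and MIF-AS1 by 0.60, 0.33 and 0.31 the other way, with no call.

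Antibody effects were compared over the 6 pair means, 3 treated against 3 untreated. No RNA passed and 0% of all genes did (limma, smallest adjusted p = 1.00), and at an unadjusted p under 0.05 there were 2 RNAs, RUSC1-AS1 and SUCLG2-DT, against 0.389% of all genes. RUSC1-AS1 had the lowest estimate, -0.77 ± 0.25: its untreated arrays lay between 6.98 and 8.65 and its treated arrays between 6.30 and 7.38. SUCLG2-DT was higher by 0.45 ± 0.17, and LAMA5-AS1, LARGE-AS1, AGAP2-AS1 and ADARB2-AS1 had estimates of 0.57, 0.53, 0.50 and 0.49. At the other end TMEM161B-DT, TPT1-AS1 and KLF3-AS1 had -0.30, -0.27 and -0.26. These values rest on few pairs. Leaving out 1 pair at a time, AGAP2-AS1 ran from 0.24 (without anti-EpCAM pair 3) to 0.93 (without untreated pair 3), ADARB2-AS1 from 0.28 (untreated pair 1) to 0.76 (untreated pair 3), LARGE-AS1 from 0.30 (untreated pair 1) to 0.78 (untreated pair 2) and LAMA5-AS1 from 0.42 (untreated pair 1) to 0.86 (untreated pair 3). TPT1-AS1 ran from -0.55 (anti-EpCAM pair 2) to -0.057 (anti-EpCAM pair 3), TMEM161B-DT from -0.38 to -0.17 (untreated pairs 3 and 2) and KLF3-AS1 from -0.36 to -0.15 (untreated pair 1 and anti-EpCAM pair 1). The median of all genes was 0.091 in the deposited values and 0.012 after quantile normalization over the 12 arrays. In the deposited values 229 of the 307 RNAs were above 0 (74.6%, against 79.5% of all genes), and after quantile normalization 156 were.

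The 4 RNAs whose probe sets had the highest means were not called; probe sets differ in brightness, so these means do not rank the amounts of RNA. FGD5-AS1 had a mean of 11.6 and pair differences of 0.07, -0.01, 0.02, -0.12, 0.11 and 0.05. OIP5-AS1, which is known to sponge microRNAs and RNA-binding proteins, had a mean of 11.2 and differences from -0.20 to 0.16. EPB41L4A-AS1 and PRR34-AS1, both at 10.9, had estimates of 0.11 and -0.040. The adjusted p of these 4 RNAs lay between 0.507 and 0.894.

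THAP9-AS1, at a mean of 10.5, was the exception in spread rather than in its mean. Its pair differences were 0.10, 0.08 and 0.36 untreated and -0.81, 0.20 and 0.70 treated (SD 0.50, estimate 0.11, adjusted p = 0.777). THUMPD3-AS1, at 9.04, had -0.17, -0.22 and 0.28 untreated and -0.73, -0.11 and 0.38 treated. In both, the lowest difference was anti-EpCAM pair 1 and the highest anti-EpCAM pair 3, the pairs in which the ACTB control shifted by 1.86 and -2.09. The GAPDH control shifted by 0.54 and -0.38 in these pairs. A part of RNA integrity in this spread was not tested, and THUMPD3-AS1 was chosen after its values were seen. THAP9-AS1 had an estimate of 0.21 with the GAPDH control difference as a covariate (adjusted p = 0.336) and of 0.19 without anti-EpCAM pairs 1 and 3 (adjusted p = 0.218).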

How the data were processed

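The deposited values are log2 values of each probe set from RMA, a tool that the submitters' processing notes name with no version. Gene names came from the platform annotation, of which RefSeq changed 0 symbols; probe positions were not used, so signal of a neighbour on the other strand was not tested, and probe sets ending in _s_at (30) or _x_at (18) can match related transcripts. After a filter at the 40th percentile of the 12-array mean (5.39), 14649 of 19775 genes were tested with limma 3.58.1 (R 4.3.3): within-pair differences, a mean per treatment, moderated two-sided tests, Benjamini-Hochberg adjustment over all genes, and a pass at an adjusted p under 0.05. SP and non-SP arrays of a pair deviated together (r = 0.62 to 0.89 over genes, -0.76 to 0.21 for other numbers), while treated and untreated arrays of 1 number did not always (-0.18 to 0.73), so the antibody comparison was not blocked. Sorted values within a pair differed by 0.0093 to 0.021, against 0.046 or more otherwise, so shared processing and a shared sort cannot be told apart. The labels name biological replicates without saying how cultures were separated, and p-values measure the spread between these samples. The members and lists were chosen with earlier results of these data known. Named were all passing RNAs, the 8 largest changes each way, the 5 highest levels, those next to the limit, the 4 largest antibody and 3 largest treatment differences each way, the 6 largest differences from the neighbour each way, and coding neighbours; others were chosen after their values were seen (HNRNPD-DT, SUCLG2-DT, THUMPD3-AS1, SERTAD4-AS1, ARRDC3-AS1, ZNF407-AS1). The fits were tested on simulated data. There the antibody fit called 32% of genes changed by 1 log2 and 70% of those changed by 2 log2. At a change of 0.5 log2 the pair fit called 93% and the fit of 12 independent arrays 18%. The simulated arrays of a pair shared a level by design, so this gain was built in and does not show that the real arrays were paired. False calls numbered 6 in the pair fit, 0 in the fit of independent arrays and 11 in the antibody fit. The absence of antibody calls, or of calls without the block, thus leaves room for missed changes.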

Additional observations from a re-analysis of the deposited data

How the results depend on the processing

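Of 15 alternatives run for the 14 passing RNAs, 5 change only the spread or the adjustment and leave each estimate as it was. The other 10 moved 133 estimates, none of which changed direction. In the fits that left out pairs, this was fixed in advance for 13 of the RNAs, which had 1 sign in all 6 pairs. The calls depended on the pairing, the probe sets and the number of pairs. Without the replicate block, 0 passed over 6 pairs, 0 in untreated and 0 in treated pairs; with the replicate number across all 4 groups as the block, 1 passed (CARD8-AS1). The GAPDH control difference as a covariate left 9, where 332 of all genes were called, against 362 in the main fit. The mean of all probe sets of a gene left 8 (1 in treated pairs, CARD8-AS1), where 249 of all genes were called. HOXB-AS1 (-0.27, adjusted p = 0.138, limma) and MCPH1-DT (0.22, adjusted p = 0.0720) were among those lost with that mean. Leaving out anti-EpCAM pairs 1 and 3 leaves 1 treated pair, and CARD8-AS1 and RNF139-DT then had estimates of -0.98 and -0.81. With a variance trend, 3 passed in untreated pairs, where 44 of all genes were called: CARD8-AS1, PDCD4-AS1 and RNF139-DT. Leaving out 1 pair gave 4 to 9 calls over the pairs, 0 to 2 in untreated and 0 to 2 in treated pairs. Over all genes it gave 72 to 430, 0 to 16 and 0 to 32. The fewest over the pairs, for the RNAs (4) and for all genes (72), came without anti-EpCAM pair 2. RNAs on 1 side of their neighbour numbered 36 to 50 without 1 pair, where 5 pairs must match in place of 6. MORF4L2-AS1 minus its neighbour was 0.30 with the mean of all probe sets. Quantile normalization, a limit of 6 for all genes and no filter gave 15, 15 and 13 calls, against 349, 401 and 302 over all genes. A limit of 7 for the RNAs left 142, of which 10 passed, and the 40th percentile gave 451, of which 15 passed. These stand beside 14 of 307 at the limit of 6 and 362 of all 14649 genes tested, so the share depended on the limit. The antibody comparison and the difference between treatments had 0 calls under all alternatives run; a block on the replicate number changed no call of the former. Depth has no meaning for arrays, but dim probe sets near the filter, such as those of PDCD4, limit what the neighbours can show.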

Other observations

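Among other long noncoding RNAs, 6 of 262 tested genes with a LINC symbol fell and 0 rose in SP, where 1.45% of all genes fell and 1.02% rose: LINC01279 by 0.62 (adjusted p = 0.0246, limma), LINC00324 by 0.42, LINC01003 by 0.40, LINC00993 by 0.39, LINC02532 by 0.35 and LINC00342 by 0.34. Their median was 0.0051, against 0.0056 for all genes. Of 24 other antisense-type RNAs, SPRY4-IT1 fell by 0.51 (adjusted p = 0.0156) and ALMS1-IT1 rose by 0.30 (adjusted p = 0.0279), both from introns of the gene in their symbol. Of 19 tested host genes of small RNAs, 0 passed. Of 17 tested well known long noncoding RNAs, MEG3, an imprinted RNA, fell by 0.34 (adjusted p = 0.0274). This list also holds FGD5-AS1, OIP5-AS1, EPB41L4A-AS1 and GAS6-AS1, which are among the RNAs described above. MALAT1, an abundant nuclear RNA, had an estimate of -0.93 ± 0.25 that did not pass (adjusted p = 0.0904) and was lower in 5 of 6 pairs. Of 257 tested coding neighbours, 3 rose and 2 fell.

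Over the 6 pair differences, the genes whose pattern was most like that of CARD8-AS1 were CRTC2, STK25 and MAP1S (r = 0.997, 0.997 and 0.994), with mean differences of only -0.028, -0.077 and -0.093. Those most like RNF139-DT were MATN4, SNU13 and RAD51C (r = 0.997, 0.997 and 0.996). With 6 points and 14649 genes, the highest r for each of the 14 passing RNAs lay between 0.969 and 0.998, and these values are a description.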
